A study of Mus musculus with 18 samples.

Results

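The cytosolic ribosome is built from a small and a large subunit, and its proteins are encoded by genes named *Rps* for the small subunit and *Rpl* for the large subunit. The members described here are the 86 genes of 23420 listed in each of 3 expression tables of embryonic mouse lung whose symbol starts with Rpl or Rps and a digit, or is *Rplp0*, *Rplp1*, *Rplp2* or *Rpsa*. Kinase names starting with Rps6k (10) and pseudogene names containing -ps (5) were left out. The rule returned 52 large subunit names, 33 small subunit names and *Rps19bp1*, which encodes a protein that binds RPS19 and is not a ribosomal protein. Of these, 82 were tested in every table, since at least 3 of its 6 libraries had 10 normalized counts or more: 48 of the large subunit, all 33 of the small subunit, and *Rps19bp1*. The genes left untested were *Rpl10l*, *Rpl26*, *Rpl39l* and *Rpl3l*.

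Ribosomal proteins are made in nearly equal numbers in every growing cell and are assembled on ribosomal RNA in the nucleolus. Their mRNAs start with a cytosine and a run of pyrimidines, the 5′ terminal oligopyrimidine tract, through which mTOR and the RNA-binding protein LARP1 control their translation together. When assembly is disturbed, RPL5 and RPL11 bind MDM2 and p53 accumulates, and the loss of a single ribosomal protein can alter embryonic patterning.

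The study profiled whole lungs by bulk RNA-Seq in 3 experiments, each with 3 control and 3 mutant libraries. In the *Vangl1/2* experiment at E12.5 (embryonic day), both groups were *Vangl1*-/- in the labels, and the mutants were also *Vangl2*-/-. *Vangl2* was deleted from a floxed allele with *Sox2-Cre*, and the *Vangl1* allele is a gene trap. In the *Dermo1-Cre* experiment at E12.5, controls were *Wnt5a* f/+; *Dermo1Cre* and mutants *Wnt5a* f/f; *Dermo1Cre*. *Dermo1-Cre* acts in the lung mesenchyme. In the *Sox9-Cre* experiment at E13.5, controls were *Wnt5a* f/+; *Sox9Cre* and mutants *Wnt5a* f/f; *Sox9Cre*. *Sox9-Cre* acts in the epithelium, after early branching has begun. All *Wnt5a* controls therefore carried Cre and 1 floxed allele. The number of embryos behind a library was not given in the sources used here, so p-values measure the spread between these libraries, which may be technical.

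Between 15945393 and 19814346 reads per library lay on genes, and size factors ranged from 0.952 to 1.07. *Vangl2* was at 277, 406 and 334 normalized counts in its controls and at 86.6, 79.8 and 89.6 in its mutants (limma, adjusted p = 0.0318). *Wnt5a* was at 472, 430 and 490 in the *Dermo1-Cre* controls and at 317, 436 and 230 in the mutants, with groups that overlapped. In the *Sox9-Cre* experiment *Wnt5a* overlapped as well, at 426 to 473 in controls and 362 to 448 in mutants. All 5 epithelial and all 5 mesenchymal lung markers passed the filter in each table, and their values stand beside the members' below. In the *Vangl1/2* experiment the libraries of control replicates 1 and 3 stood apart: on principal component 1, which held 51.7% of the variance, they scored -30.1 and -44.7, whereas control replicate 2 scored 17 and the mutants 15.1 to 21.5. The members' median and counts of that experiment are therefore given with and without each control.

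The start of the transcript is shown first because it is the feature these mRNAs are known for. RefSeq promoters (build GRCm38.p6, 250 bases before and 50 after each annotated start) matched 65 of the 86 members, with 77 promoters in all. A C at the annotated start followed by at least 4 C or T bases on the coding strand was found in 13 of the 77 (16.9%) and in 2.51% of all 32851 promoters. A C followed by at least 7 pyrimidines anywhere within 25 bases of the start was found in 44.2% of the members' promoters and in 15.5% of all promoters; the first kind of tract is also counted here if it is long enough. The letters CCGGAAG, the core bound by factors of the ETS family, were present on either strand in 35.1% of the members' promoters and in 8.86% of all promoters. TATAAA was present in 9.09% and 13.6%, respectively. In the 8 windows below, of 30 bases each, the capitals mark the pyrimidine tract that begins at the annotated start. They belong to members whose values are given further on.

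Rpl15: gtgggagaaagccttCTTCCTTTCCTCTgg
Rpl28: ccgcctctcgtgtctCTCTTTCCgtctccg
Rpl38: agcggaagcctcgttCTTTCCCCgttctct
Rplp2: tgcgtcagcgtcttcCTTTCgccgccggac
Rps6: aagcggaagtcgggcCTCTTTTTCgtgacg
Rps18: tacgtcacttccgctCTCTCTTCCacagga
Rps21: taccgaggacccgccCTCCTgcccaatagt
Rps27: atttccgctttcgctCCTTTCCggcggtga

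The windows lie at chr14:18270972-18271001 on the minus strand (*Rpl15*), chr7:4792950-4792979 on the plus strand (*Rpl28*), chr11:114668565-114668594 on the plus strand (*Rpl38*) and chr7:141447636-141447665 on the plus strand (*Rplp2*). Those of the small subunit lie at chr4:86857353-86857382 (*Rps6*), chr17:33955651-33955680 (*Rps18*) and chr3:90213634-90213663 (*Rps27*) on the minus strand, and at chr2:180257364-180257393 (*Rps21*) on the plus strand. Each covers the end of the promoter and the start of the 5′ untranslated region. The longest of the 8 tracts was that of *Rpl15*, with 13 bases, and the shortest were those of *Rplp2* and *Rps21*, with 5.

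Members differed widely in level. Levels between genes are given as normalized counts per kilobase of annotated transcript, within a table. In *Dermo1-Cre* controls the median of the 82 tested genes was 10329.5, and the levels ran from 59.8 to 33206. The highest were *Rpl41*, the smallest ribosomal protein (33206), *Rps26* (32729), which lies at the mRNA exit channel, and *Rps15* (28191), which lies close to the decoding site. They also led in the *Sox9-Cre* controls, at 32414, 29843 and 27875. *Rps27*, *Rpl30* and *Rpl34* were the lowest, at 59.8, 65.9 and 110 in the *Dermo1-Cre* controls and at 48.0, 56.9 and 109 in the *Sox9-Cre* controls. The order within either set of 3 was not tested, and the tables were normalized separately. These values per kilobase depend on the transcript chosen: *Rps15a* and *Rps20* have long annotated transcripts, which lowers them.

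Several low values belonged to genes with near-identical copies in other gene models. Ribosomal protein genes have many processed pseudogenes, and reads that match more than 1 place may be dropped or misassigned. Another gene model matched the transcript over 100 bases or more, with 98% identity as the minimum, for 70 of the 86 members. Positions were not compared, so a gene model that overlaps the member's own gene would also count as a copy. Copies covered 98.8% of the *Rps27* transcript, 92.1% of *Rpl30* and 73.8% of *Rpl34*. Wide copies were not particular to low members: they covered 99.4% of *Rplp1* and 97.3% of *Rps18*, which stood at 21254 and 14984 normalized counts per kilobase in the *Dermo1-Cre* controls. The copy of *Rplp1* lay in 1 other gene model, which was not annotated as a pseudogene. *Rpl26*, a core protein near the exit tunnel that also binds p53 mRNA, was listed at 0 in all 18 libraries, and copies in 4 pseudogenes covered 83.3% of its transcript. How reads with several matches were counted was not given in the sources used here, so the level of genes with copies is uncertain.

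*Rpl22* and *Rpl22l1*, whose products can replace each other in the ribosome, were closest, at 3030 and 1944 normalized counts per kilobase in the *Dermo1-Cre* controls and at 3237 and 1974 in the *Sox9-Cre* controls. *Rpl7* stood at 18388 against 1271 for *Rpl7l1*, and *Rpl36a* at 10538 against 1553 for *Rpl36al* in the *Dermo1-Cre* controls. *Rps4x* stood at 19535, against 1169 for *Rps4y2*, a row whose name is a synonym of *Rps4l*, annotated as a transcribed processed pseudogene. *Rps27l*, a p53 target, was higher than *Rps27* (1308 against 59.8), and copies cover nearly all of the *Rps27* transcript, as given above. The tissue-restricted paralogs were near 0. *Rpl10l*, which serves in spermatogenesis, was listed at 0 in all 18 libraries, where a count of 0 allows up to 3 reads per library. *Rpl39l* ranged from 0 to 3.10 normalized counts and *Rpl3l*, a paralog of heart and skeletal muscle, from 0 to 4.02.

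In the *Vangl1/2* experiment all 82 tested members had lower mean log2 values in the mutants, and 0 passed the test with all 6 libraries; 1 of the 3 controls lay with the mutants. The members summed to 1429807, 901247 and 1597233 normalized counts in control replicates 1, 2 and 3, and to 910082, 924695 and 829142 in the mutants. Control replicate 2 lay within the range of the mutants, and control replicates 1 and 3 lay far above all other libraries. As a share of the reads on genes, the members took 7.26%, 4.88% and 7.90% in the controls and 4.73%, 4.88% and 4.42% in the mutants. The control mean of this share was 6.68% ± 1.59 (SD, n = 3), and the mutant mean was 4.68% ± 0.236 (SD, n = 3). In whole lungs, fewer cells of a type and less RNA per cell cannot be told apart.

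**Figure D1:**
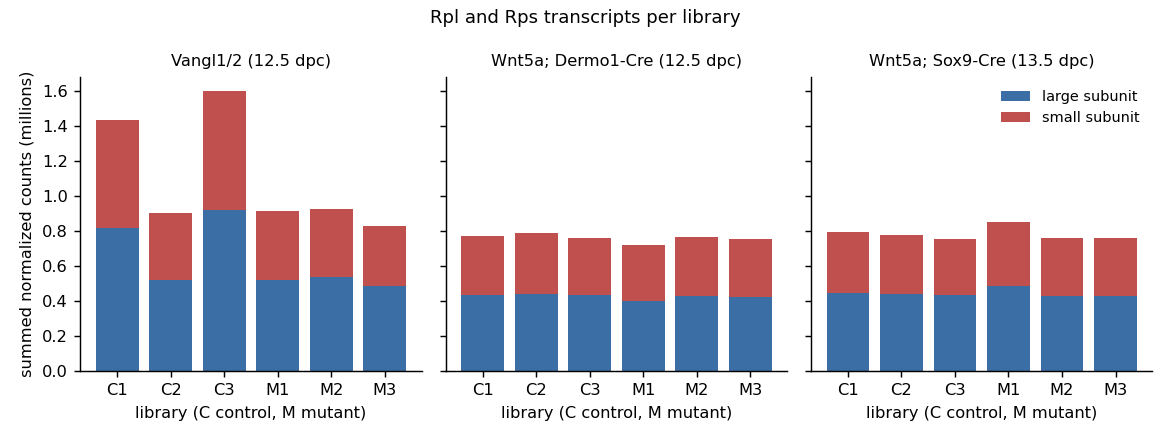
Summed normalized counts (axis from 0) of the large and small subunit members in each library of the 3 experiments, 3 controls (C) and 3 mutants (M) each. Of the *Vangl1/2* libraries C1 (1429807) and C3 (1597233) exceed the other 4 libraries (829142 to 924695). The *Dermo1-Cre* libraries lie between 717277 and 784854, and the *Sox9-Cre* libraries between 750533 and 847835.

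The pattern of single members followed the sum. Of the 82 tested, 79 (96.3%) had both control replicates 1 and 3 above control replicate 2 and above every mutant, a pattern that 30.4% of all 14303 tested genes showed. The exceptions were *Rpl29*, *Rpl30* and *Rps18*. Control replicate 2 lay within the range of the mutants for 58 of the 82 members and for 49.3% of all genes. All 82 log2 fold changes (mutant against control) were below 0, against 51.2% of all genes. They ran from -1.28 to -0.25 with a median of -0.54, and the median of all tested genes was -0.01.

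No member passed an adjusted p of 0.05 in limma (smallest adjusted p = 0.233), against 0.00699% of all genes in the lower direction and 0.0% in the other. At an unadjusted p under 0.05, 58 members were lower (26 small, 31 large and *Rps19bp1*) and 0 higher, against 8.56% and 12.0% of all genes. edgeR's quasi-likelihood test called 0 members, with 72 lower at an unadjusted p under 0.05 against 10.9% of all genes. DESeq2 called 1, *Rpl15*, against 0.0699% of all genes, and 74 were lower at an unadjusted p under 0.05 against 10.1%. The groups did not overlap for 18 members, all lower in mutants, against 8.68% of all genes in that direction and 13.6% in the other.

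The count of calls depended on 1 library. Without control replicate 2, limma called 79 members, all lower, and 21.7% of all genes in the same direction. The median of the members was then -0.79. The members not called were again *Rpl29*, *Rpl30* and *Rps18*. Without control replicate 1 or 3, 0 members were called and the medians were -0.45 and -0.37. The count of 58 at an unadjusted p under 0.05 became 4 without control replicate 1 (1.62% of all genes), 10 without control replicate 3 (2.09%), and 29, 34 and 5 without mutant replicates 1, 2 and 3 (3.68%, 4.28% and 2.48%). All 82 members remained below 0 without any single control.

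**Figure D2:**
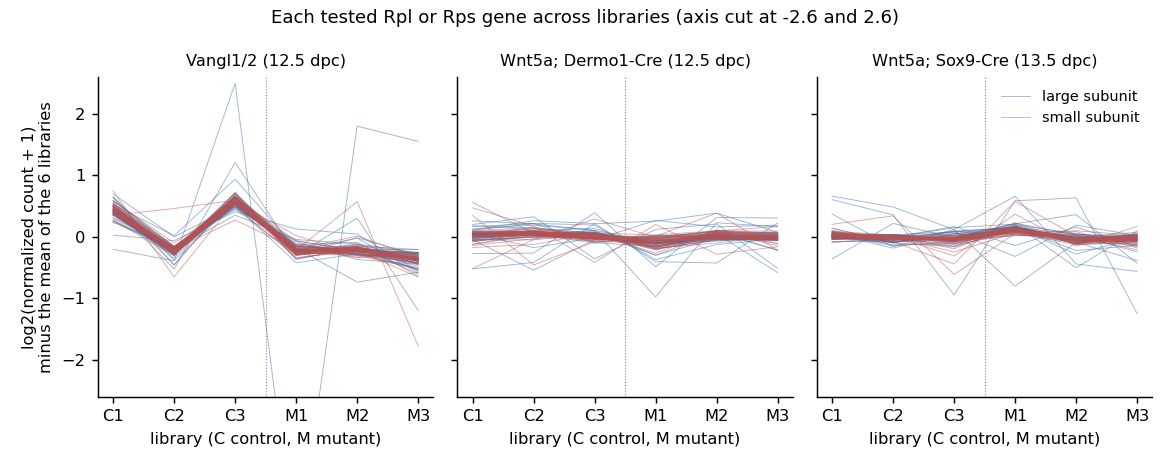
Each line is 1 tested member, drawn as log2(normalized count + 1) minus its mean over the 6 libraries of an experiment. In the *Vangl1/2* panel nearly all lines are high in C1 and C3 and low in C2 and M1 to M3. The line with the widest swing is *Rpl29*, with 55.4 normalized counts in M1 and 12320 in C3.

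The quartiles of the members' log2 fold changes in this experiment were -0.58 and -0.49. *Rpl5* and *Rpl11*, which form a particle with 5S ribosomal RNA and can bind MDM2, gave 22324, 16542 and 27177 and 20500, 12571 and 22341 normalized counts in the controls. In the mutants *Rpl5* was at 15905, 16979 and 16323 and *Rpl11* at 12795, 13952 and 11559. Both overlapped through control replicate 2, and their log2 fold changes were -0.40 ± 0.17 and -0.49 ± 0.21 (SE; limma, adjusted p = 0.246 and 0.241).

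The stalk proteins, which recruit translation factors to the large subunit, had control replicate 2 near the mutants in the same way. *Rplp0* was at 58861, 36734 and 66012 in the controls and at 38258, 37337 and 35806 in the mutants. *Rplp1* was at 27161, 16110 and 29507, then at 14690, 16807 and 13960. *Rplp2* was at 14136, 9313 and 15641, then at 8984, 9115 and 8160. *Rplp2* alone of these 3 did not overlap between groups. Their log2 fold changes were -0.49, -0.64 and -0.54.

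In the small subunit, *Rps6*, the substrate of the S6 kinases, was at 31028, 19957 and 36895 in the controls and at 20482, 20747 and 20001 in the mutants. *Rpsa*, which also serves as a laminin receptor, was at 71613, 43853 and 76751, then at 47745, 42926 and 40406. *Rps3*, at the mRNA entry channel, was at 30890, 19962 and 34270, then at 19355, 20382 and 17847. In each of these genes control replicate 2 fell among the mutants or below them. Their log2 fold changes were -0.48, -0.51 and -0.53.

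Members whose loss is known to alter development in mice or people had like values. *Rps19*, mutated in Diamond-Blackfan anaemia, had a log2 fold change of -0.56 ± 0.22 (SE), *Rpl38*, the gene of the tail-short mouse, -0.58 ± 0.19, and *Rpl24*, the gene of the belly spot and tail mouse, -0.44 ± 0.20. *Rps20* and *Rps7*, genes of dark-skinned or malformed mouse mutants, had -0.57 ± 0.22 and -0.55 ± 0.21, and *Rpl27a*, of the sooty foot ataxia mouse, had -0.56 ± 0.20. Without control replicate 2 the values of *Rps19*, *Rpl38* and *Rps20* were -0.85, -0.80 and -0.84 (limma, adjusted p = 9.99e-05, 0.000259 and 0.00015). Without control replicate 1 they were -0.50, -0.46 and -0.48 (limma, adjusted p = 0.596 for each), and without control replicate 3 they were -0.35, -0.49 and -0.40 (limma, adjusted p = 0.568 for each). With the trend on transcript length removed, described further on, they were -0.15, -0.08 and -0.64 (limma, adjusted p = 0.695, 0.777 and 0.536).

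At the edges of the distribution, *Rpl15* had the lowest log2 fold change of the members with a small error. This protein of the large subunit core was at 9722, 6849 and 12951 normalized counts in controls and at 5945, 4054 and 4531 in mutants, so that even control replicate 2 exceeded all mutants. Its log2 fold change was -0.99 ± 0.23 (SE; limma, adjusted p = 0.233) and -1.02 in DESeq2 (adjusted p = 0.0125). Copies in 6 pseudogenes covered 76.8% of its transcript. *Rpl29*, which had the lowest value of all (-1.28 ± 1.76), was at 1892, 1662 and 12320 in controls and at 55.4, 7593 and 6391 in mutants. Its libraries scattered without regard to group, and 10 other gene models held copies of 69.2% of it. Without mutant replicate 1 the *Rpl29* value turned to 1.04. The values closest to 0 were those of *Rpl30* (-0.25 ± 0.25), at 33.5 to 66.2 normalized counts, and *Rpl7l1* (-0.28 ± 0.15), at 2913 to 4459.

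Both genes of each paralog pair lay below 0. *Rpl22* and *Rpl22l1* had log2 fold changes of -0.45 and -0.57, *Rpl7* and *Rpl7l1* -0.45 and -0.28, *Rpl36a* and *Rpl36al* -0.46 and -0.41, *Rps27* and *Rps27l* -0.52 and -0.64, and *Rps4x* and *Rps4y2* -0.49 and -0.35. *Rpl3*, *Rpl39* and *Rpl10*, whose paralogs were near 0, had -0.40, -0.59 and -0.52.

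Transcript length varied with these values. The members are short: their median annotated transcript was 830 bases, against 2921 bases over all tested genes. Among the other genes of the *Vangl1/2* experiment, the median log2 fold change was -0.39 under 1000 bases (915 genes), -0.24 from 1000 to 2000 bases, -0.03 from 2000 to 4000 bases and 0.26 above 4000 bases. Members under 1000 bases (58) had a median of -0.55, and those from 1000 to 2000 bases (20) a median of -0.52. Across all 14184 genes with a length, Spearman's correlation between length and log2 fold change was 0.70, as a description of libraries that share their preparation. After each library's trend on length was removed, the median of the members was -0.14, 79 of 82 lay below 0 (50.8% of all genes), *Rpl30*, *Rpl36a* and *Rps4y2* being the exceptions. limma then called 0 members (0.00705% of all genes lower), with 12 lower at an unadjusted p under 0.05 against 4.11% of all genes. With the trend removed and control replicate 2 left out, 32 members were called, all lower, against 6.7% of all genes, with a median of -0.23. Among them were *Rps20* (-0.94), *Rps3* (-0.52), *Rpsa* (-0.49), *Rpl22* (-0.46), *Rpl5* (-0.38) and *Rplp0* (-0.36), whereas *Rpl11* and *Rpl38* had adjusted p-values of 0.0707 and 0.347 in limma. The called genes named here have long annotated transcripts for members. They are 3706 bases for *Rps20*, 2048 for *Rpl22*, 2045 for *Rpl5*, 1908 for *Rps3*, 1768.5 for *Rpsa* and 1358 for *Rplp0*. Those of *Rpl11* and *Rpl38* are 833 and 367.5 bases. Across the members, with all 6 libraries, Spearman's correlation between length and log2 fold change was 0.41 before the trend was removed and -0.51 after. Values after removal therefore depend on the transcript chosen for a gene. What part length has in the lower values of the members was not tested beyond this.

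**Figure D3:**
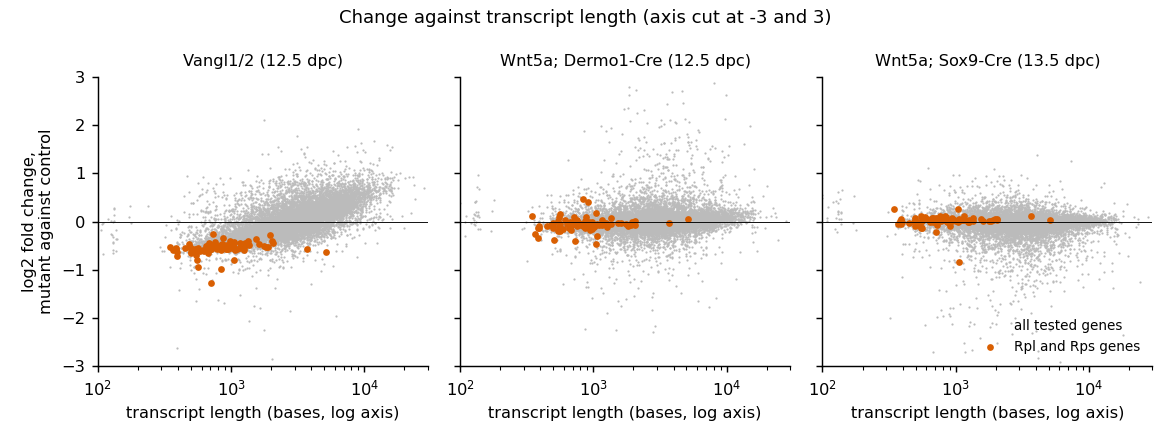
Log2 fold change of each tested gene (grey) and of each tested member (orange) against annotated transcript length on a log axis, per experiment. In the *Vangl1/2* panel values climb with length (Spearman's correlation 0.70 over 14184 genes) and the members lie at the short end. The same correlation was 0.23 in the *Dermo1-Cre* and -0.04 in the *Sox9-Cre* experiment.

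Other RNAs of the translation machinery were read beside the members. The 3 ribosomal proteins under other names, such as *Fau* and *Rack1*, had a median log2 fold change of -0.56, 0 passed the threshold, and all 3 were at an unadjusted p under 0.05. *Fau*, for instance, was at 7531, 4768 and 8364 in controls and at 4745, 4747 and 4174 in mutants. Of 44 tested translation factors 0 passed, 9 were lower and 3 higher at an unadjusted p under 0.05, and the median was -0.26. The 7 other mRNAs with a pyrimidine tract, such as *Tpt1* (-0.47) and *Npm1* (-0.19), had 0 calls, 0 at an unadjusted p under 0.05, and a median of -0.22. Of the 77 genes of ribosome assembly and ribosomal RNA synthesis 0 passed, 13 were lower and 4 higher at an unadjusted p under 0.05, and the median was -0.15. The list of 22 p53 targets and regulators includes *Rps27l*, itself a member. Of these 22, 0 passed, 1 was lower at an unadjusted p under 0.05, and the median was -0.02. *Mdm2* was at 0.06 and *Cdkn1a* at 0.12. Of the 22 genes that control these mRNAs 0 passed, 6 were higher and 3 lower at an unadjusted p under 0.05. Their median was 0.05, and 9 of the 22 lay below 0. *Larp1* and *Mtor*, the regulators named in the background above, were at 0.46 and 0.41 (limma, adjusted p = 0.233 for both). For these genes no value with the trend on length removed is given. With the trend on length removed the medians of these 6 lists, in the same order, were -0.12, -0.12, -0.04, -0.09, 0.03 and -0.04, so that the last 2 turned sign.

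Calls in these lists also depended on control replicate 2. Without it, limma called 3 of 3 ribosomal proteins under other names lower, 30 translation factors lower and 3 higher, 5 of 7 other mRNAs with a pyrimidine tract lower, and 41 assembly genes lower and 4 higher. Of the p53 genes 4 were then lower and 3 higher, and of the genes that control these mRNAs 4 were lower and 6 higher. The member *Rps27l* was among the 4 p53 genes that were lower. Of all genes 21.7% were called lower and 21.5% higher in that fit. Without control replicate 1 or 3, 0.0% of all genes were called lower, and the medians of the 6 lists were -0.44, -0.21, -0.20, -0.14, 0.01 and 0.03 without the first and -0.40, -0.13, -0.15, -0.05, 0.00 and 0.04 without the third.

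Further RNAs varied with control replicates 1 and 3. *Rn45s*, the ribosomal RNA precursor, was at 48797, 23823 and 54311 in controls and at 22330, 28165 and 24051 in mutants. The nuclear RNAs *Malat1* and *Meg3* went the other way in the controls: *Malat1* was at 1956, 3997 and 1149, then at 2908, 3292 and 3891. The 7 listed erythroid markers summed to 51983, 32520 and 48336 in controls and to 27942 to 37364 in mutants. *Hba-a1* and *Hba-a2* were listed at 0, and 5 of the 7 were tested, with 0 called, 1 lower at an unadjusted p under 0.05 and a median of -0.34. The 5 mesenchymal lung markers all lay above 0, with 0 called, 2 higher at an unadjusted p under 0.05 and a median of 0.16. They summed to 15009 to 16602 in controls and to 17691 to 18258 in mutants. Of the 5 epithelial markers 2 lay below 0 and 0 were at an unadjusted p under 0.05, with sums of 9005 to 9886 and 8536 to 10291. The 3 hepatocyte markers tested all lay below 0, with 0 called, 1 lower at an unadjusted p under 0.05 and a median of -0.39, and the 5 neuronal markers all lay above 0, with 0 called, 1 higher at that p and a median of 0.56. Without control replicate 2, limma called 3 mesenchymal, 3 endothelial, 2 neuronal and 1 macrophage marker higher. It called 1 epithelial and 2 erythroid markers lower, and 0 hepatocyte or cardiomyocyte markers in either direction. Of all genes 21.5% were called higher and 21.7% lower in that fit. The part of these RNAs in the members' values was not tested.

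In the *Dermo1-Cre* experiment the members were close to their controls. They summed to 769936, 784854 and 760701 normalized counts in controls and to 717277, 761683 and 753517 in mutants. Mutant replicate 1 was the lowest library, mutant replicate 2 lay within the range of the controls, and mutant replicate 3 lay just under it. The share of reads was 4.80% ± 0.0497 (SD, n = 3) in controls and 4.66% ± 0.177 in mutants. Of the 82 members 65 lay below 0, against 49.7% of all genes, with a median of -0.06 and a range from -0.47 to 0.48. Without mutant replicate 1 the median was -0.03, and with the trend on length removed it was -0.01 with 48 members below 0, against 48.7% of all genes.

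No member passed in limma (smallest adjusted p = 0.204), against 0.007% of all genes in either direction. At an unadjusted p under 0.05, 15 members were lower and 3 higher, against 4.76% and 5.42% of all genes. The count of 15 became 6 without control replicate 1, control replicate 2 or mutant replicate 1 (4.55%, 2.44% and 2.71% of all genes), and 23 without mutant replicate 2 (6.14%). edgeR called 0 members, with 16 lower and 3 higher at an unadjusted p under 0.05 (4.98% and 5.23%). DESeq2 called 3, all lower and of the large subunit, against 0.161% of all genes. These were *Rpl36*, *Rpl21* and *Rpl41*, given here after their values were seen.

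*Rpl36* was at 2240, 2425 and 2379 normalized counts in controls and at 1611, 1909 and 2038 in mutants, with a log2 fold change of -0.35 ± 0.08 (SE; limma, adjusted p = 0.204, and DESeq2, adjusted p = 0.00428). *Rpl21* was at 4826, 5032 and 4736, then at 3574, 4670 and 3781 (-0.29 ± 0.09; limma, adjusted p = 0.337, and DESeq2, adjusted p = 0.0363). *Rpl41* was at 17462, 18104 and 18627, then at 14762, 16241 and 16389 (-0.19 ± 0.05; limma, adjusted p = 0.291, and DESeq2, adjusted p = 0.0137). The groups of all 3 genes did not overlap, as for 18 members lower in mutants against 7.92% of all genes. Without mutant replicate 2, limma called *Rpl21* alone (-0.40, adjusted p = 0.0459, with 0.028% of all genes called lower). *Rpl21* had copies in 17 other gene models, the most of any member, and copies covered 97.9% of *Rpl36*.

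Other members with a low log2 fold change and no overlap were *Rpl38*, at 2545, 2470 and 2336, then at 1828, 2205 and 2150 (-0.25 ± 0.07), and *Rpl28*, at 10299, 10812 and 10421, then at 8633, 9605 and 9783 (-0.17 ± 0.05). *Rps21*, which has no near-identical copy, was at 3448, 3451 and 3313, then at 2890, 3207 and 3182 (-0.14 ± 0.05). In each of these genes mutant replicate 1 was the lowest library. The lowest log2 fold changes of all were those of *Rpl17* (-0.47 ± 0.16), at 5401, 3822 and 3874, then at 3239, 3788 and 2450, and *Rpl30* (-0.40 ± 0.23). Leaving out each library in turn, with the trend on length kept or removed, gave -0.61 to -0.25 for *Rpl17*. It was -0.31 without control replicate 1 and -0.30 without mutant replicate 3.

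*Rpl15* and *Rpl7a* had the highest log2 fold changes, and *Rps18* was the third member that was higher at an unadjusted p under 0.05. *Rpl15* was at 3224, 3467 and 5365 in controls and at 5521, 6049 and 4865 in mutants (0.48 ± 0.16), and control replicate 3 exceeded mutant replicate 3. Without control replicate 3, limma called *Rpl15* higher (0.71, adjusted p = 0.0322, with 0.028% of all genes called higher). *Rpl7a* was at 3582, 2539 and 3582, then at 4451, 4133 and 4219 (0.42 ± 0.11), the 1 member higher in mutants without overlap, against 7.65% of all genes. Without control replicate 2 the *Rpl7a* value was 0.25, and over all libraries left out in turn, with that trend kept or removed, it ran from 0.25 to 0.56. *Rps18* was at 7842, 8107 and 9224, then at 9031, 9457 and 9425 (0.15 ± 0.06).

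The genes described by role above were near 0 in this experiment. *Rpl5* had a log2 fold change of -0.08 ± 0.04 (SE) with groups that did not overlap, *Rpl11* -0.08, *Rplp0* -0.05, *Rps6* -0.02, *Rpsa* -0.05 and *Rps19* -0.01. The neuronal marker list, for which 5 of 5 genes were tested with 0 called and 5 higher at an unadjusted p under 0.05, summed to 359 to 669 normalized counts in controls and to 841 to 1990 in mutants, and *Malat1* was at 2753 to 3347 and at 3586 to 4449. Of the 5 epithelial lung markers all lay below 0, with 0 called, 4 lower at an unadjusted p under 0.05 and a median of -0.11, and their sums were 10467 to 11466 in controls and 9849 to 10023 in mutants. Of the 5 mesenchymal markers 3 lay below 0 and 1 was lower at that p, with sums of 14076 to 14880 and 14554 to 14734. The 3 hepatocyte markers tested had 0 calls, 2 lower at that p and a median of -1.03, and their list summed to 128.8 to 290.6 and to 65.5 to 128.1. The 6 cardiomyocyte markers all lay below 0, with 0 called, 0 at that p and a median of -1.34. They summed to 265.5, 3456 and 12075 in control replicates 1, 2 and 3 and to 1317, 1610 and 289.6 in the mutants. Their part in the members' values was not tested. The 77 assembly genes had 0 calls, 6 lower and 2 higher at an unadjusted p under 0.05, and a median of -0.02. The 44 translation factors had 0 calls, 7 lower and 1 higher at that p, and a median of -0.04.

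In the *Sox9-Cre* experiment the members lay on the other side of 0, by a small margin. They summed to 789940, 778053 and 750533 normalized counts in controls and to 847835, 755902 and 759181 in mutants. Mutant replicate 1 was above all other libraries, and the other mutants were within the range of the controls. The share of reads was 4.77% ± 0.126 (SD, n = 3) in controls and 4.85% ± 0.425 in mutants. Of the 82 members 63 lay above 0, against 50.7% of all genes, with a median of 0.03. Without mutant replicate 1 the median turned to -0.02.

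No member passed in limma (smallest adjusted p = 0.9999), against 0.0% of all genes in either direction. At an unadjusted p under 0.05, 1 member was lower and 0 higher, against 2.81% and 1.08% of all genes. edgeR and DESeq2 called 0 members as well, with 1 lower and 1 higher (2.61% and 1.11% of all genes), and 1 lower and 2 higher (1.8% and 0.476%), at an unadjusted p under 0.05. Without mutant replicate 1, 6 members were lower at that p, against 5.97% of all genes.

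*Rpl17*, whose product lines the exit tunnel of the large subunit, had the lowest log2 fold change, as in the *Dermo1-Cre* experiment. It was at 6089, 5391 and 4177 normalized counts in controls and at 2208, 3620 and 2943 in mutants (-0.85 ± 0.19; limma, adjusted p = 0.9999), the 1 member lower without overlap, against 4.36% of all genes. Among the *Vangl1/2* libraries it was at 4343, 2147 and 7144, then at 2510, 3813 and 1346 (-0.79 ± 0.47), with overlap. Copies in 10 pseudogenes covered 80.0% of the transcript. Next came *Rpl29* (-0.23 ± 0.29), at 5613, 3882 and 4724, then at 6854, 3197 and 2940. The groups did not overlap, with mutants higher, for 4 members against 4.42% of all genes, among them *Rpl7* (0.12), *Rpl7l1* (0.05) and *Rps4x* (0.04). The highest were *Rps2* (0.26 ± 0.13), at 9741, 10420 and 8381, then at 13411, 9361 and 11688, and *Rps27* (0.26 ± 0.32), at 13.0 to 27.3. Both overlapped. *Rpl5*, *Rpl11*, *Rplp0*, *Rps6*, *Rpsa* and *Rps19* lay between 0.01 and 0.11.

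The erythroid markers summed to 27282 to 31003 in controls and to 20220 to 29841 in mutants, with 0 of 5 tested called and 2 lower at an unadjusted p under 0.05, and the cardiomyocyte markers to 2705 to 11144 and to 212 to 2633, with 0 of 6 called and 5 lower at that p. Of the 5 epithelial and 5 mesenchymal lung markers 0 were at that p, with medians of -0.06 and 0.05. Of the 5 neuronal and 2 hepatocyte markers tested 0 were called, 1 of each was lower at that p, and the medians were -0.79 and -1.57. Their part in the members' values was not tested. The 77 assembly genes had 0 calls, 5 higher and 0 lower at an unadjusted p under 0.05, and a median of 0.06. The 44 translation factors had 0 calls, 1 higher and 0 lower at that p, and a median of 0.03.

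Small and large subunit genes had like medians in each experiment. For the *Vangl1/2* contrast the median log2 fold change was -0.55 for the 33 small subunit genes and -0.54 for the 48 large subunit genes. In the *Dermo1-Cre* experiment the medians were -0.05 and -0.07, and in the *Sox9-Cre* experiment 0.03 and 0.03. The small subunit took 41.9% to 43.1% of the members' counts in the *Vangl1/2* libraries, 43.3% to 44.2% in the *Dermo1-Cre* libraries and 42.7% to 43.7% in the *Sox9-Cre* libraries, and the groups overlapped in each. The differences between the medians, -0.00, 0.02 and 0.00, compare with SDs among libraries of the same group of 0.02, 0.01 and 0.01. The *Dermo1-Cre* difference, 0.0179, was above its SD of 0.0119 and was not tested. These SDs are of single libraries, whereas each difference is between groups of 3 libraries, so the SD is not its error. The widest values came from the large subunit: *Rpl29*, *Rpl15* and *Rpl17*.

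**Figure D4:**
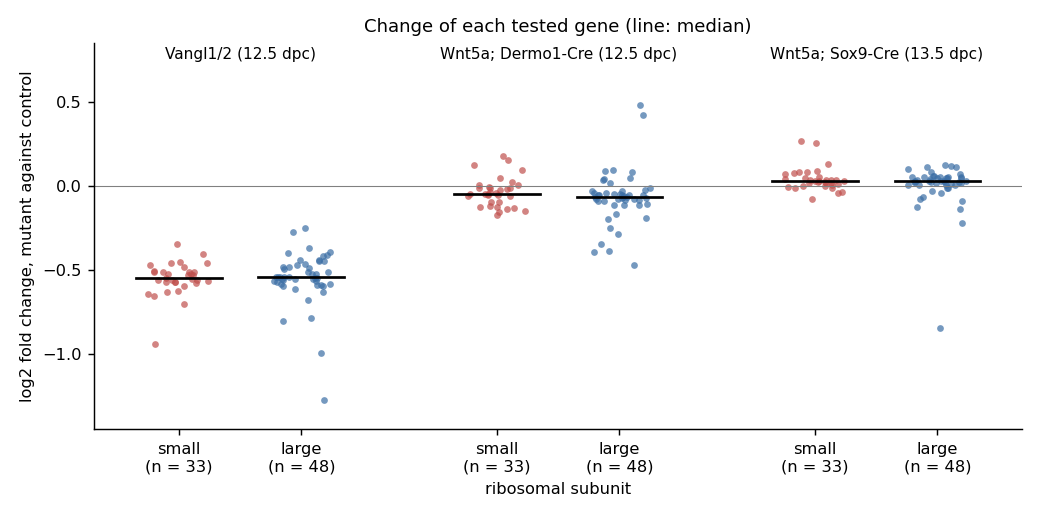
Log2 fold change of each tested small subunit (n = 33) and large subunit (n = 48) gene per experiment. Black lines are medians. Medians are -0.55 and -0.54 in the *Vangl1/2* experiment, -0.05 and -0.07 in the *Dermo1-Cre* and 0.03 and 0.03 in the *Sox9-Cre* experiment.

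Whether a member's change differed between experiments was tested by interaction terms over all 18 libraries, for 13980 genes that passed the filter in each table. The median difference of the members was -0.46 between the *Vangl1/2* and *Dermo1-Cre* changes, -0.55 between the *Vangl1/2* and *Sox9-Cre* changes, and 0.09 between the *Sox9-Cre* and *Dermo1-Cre* changes. With the trend on length removed the 3 medians were -0.14, -0.18 and 0.04. In limma 0 members passed in any of the 3 contrasts, where 0.0143%, 0.0143% and 0.0% of all genes were called lower, and edgeR also called 0. At an unadjusted p under 0.05 in limma, 51, 68 and 0 members were lower and 0 higher, against 7.66%, 11.8% and 2.02% of all genes lower. No share of all genes is given for the higher direction, so the count of 0 higher cannot be set against one. In edgeR 68 and 72 members were lower at that p in the first and second contrasts, against 11.0% and 14.9%. With the trend on length removed limma called 0 members (0.0144% and 0.00721% of all genes lower), and 14 and 26 were lower at an unadjusted p under 0.05, against 4.92% and 6.21%. Without *Vangl1/2* control replicate 2, limma called 75 and 76 members lower in the first and second contrasts, against 17.1% and 20.3% of all genes. The medians of these contrasts were then -0.71 and -0.81. Without control replicate 1 they were -0.38 and -0.47, and without control replicate 3 they were -0.31 and -0.40, with 0 members called (0.0143% and 0.00715% of all genes lower in either contrast). *Rpl15* had the largest difference between the *Vangl1/2* and *Dermo1-Cre* changes, -1.47 ± 0.35 (SE; limma, adjusted p = 0.252). Stage differs between the *Sox9-Cre* experiment and the others, and each experiment is a table of its own, so that stage, table and genotype cannot be told apart there.

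The members with the widest values had copies in other gene models, as did 70 of the 86 members. In the *Dermo1-Cre* experiment the 13 tested genes without a copy, among them *Rpl4*, *Rpl22*, *Rps3* and *Rps9*, ran from -0.14 to 0.02, and in the *Sox9-Cre* experiment from -0.08 to 0.07. The 33 tested genes with copies over at least 75% of the transcript ran from -0.47 to 0.48 and from -0.85 to 0.26. The other 36, with narrower copies, ran from -0.39 to 0.09 and from -0.23 to 0.13. The medians of the 3 classes were close, at -0.05, -0.06 and -0.06 in the first and 0.03 in each in the second. The classes differ in size, and a range tends to widen with the number of genes. They also depend on the transcript chosen: *Rps15a* and *Rps20*, with long annotated transcripts, had copied shares of 7.7% and 9.34%. Across the *Vangl1/2* libraries the 13 genes without a copy had a median of -0.51 and a range from -0.71 to -0.28, all below 0. The 36 with narrower copies ran from -1.28 to -0.41 with a median of -0.55, and the 33 with wide copies from -0.99 to -0.25 with a median of -0.53. *Rps3*, *Rps15* and *Rps21*, for example, had -0.53, -0.57 and -0.71. *Rpl35a*, which has copies too, was at 1396, 1175 and 476 normalized counts in the *Sox9-Cre* controls and at 1378, 1423 and 385 in the mutants, without regard to group. The part of misassigned reads in these values was not tested.

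**Figure D5:**
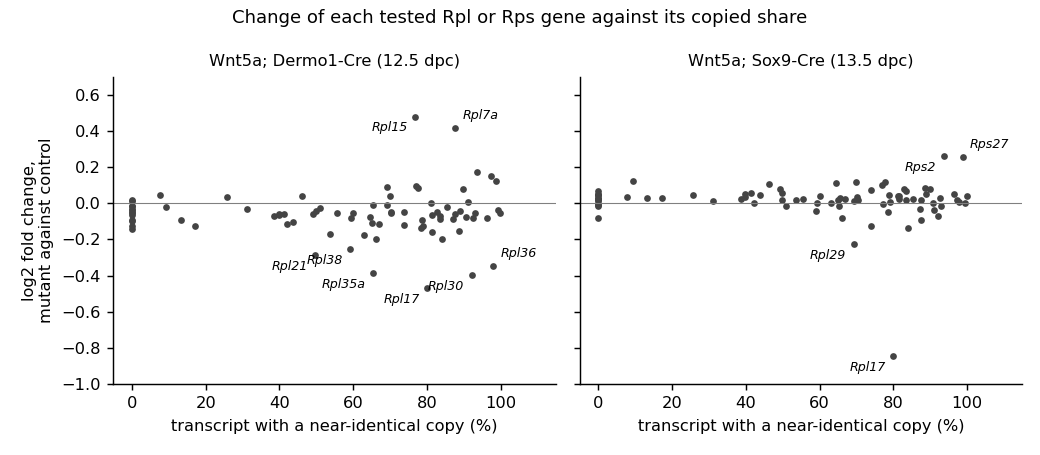
Log2 fold change of each tested member in the *Dermo1-Cre* and *Sox9-Cre* experiments against the percentage of its transcript with a copy of at least 98% identity in another gene model. This percentage depends on the transcript chosen for a gene. The 13 genes at 0% lie between -0.14 and 0.07, and *Rpl15*, *Rpl7a* and *Rpl17* lie at 76.8%, 87.6% and 80.0%. Other members away from 0 in the *Dermo1-Cre* experiment lie at higher percentages, such as *Rpl36* (-0.35) at 97.9% and *Rpl30* (-0.40) at 92.1%. Others lie at lower percentages, such as *Rpl35a* (-0.39) at 65.3% and *Rpl21* (-0.29) at 49.7%.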

How the data were processed

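Lungs were lysed in TRIzol, RNA was purified with the RNeasy Mini Kit and sequenced on an Illumina HiSeq 2000 or 4000. Per the submitters' processing notes, Trim Galore, HISAT2, featureCounts and DESeq2 were used with mm10; versions and the strand setting were not given in the sources used here. The authors deposited, per experiment, a signal table: gene counts divided by size factors, which were whole multiples of 1 step for 100% of values, within 4.62e-05 reads. The deposited log2 fold changes and p-values of the authors' comparison were not used.

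Values were tested as log2(value + 1) with limma 3.58.1 (trend; R 4.3.3), after a filter of 10 in at least 3 of 6 libraries, with Benjamini-Hochberg adjustment at 0.05. Fold changes are on that scale, which understates those of low genes. With 3 against 3 libraries, an exact permutation test cannot go below p = 0.1. edgeR 4.0.16 and DESeq2 1.42.0 were run on recovered reads in place of the deposited values. The limma test was also run on simulated counts, with each gene drawn independently. These held no shift shared by some libraries and no trend on length, so they cannot judge the test where the data have them. A lowess trend (span 0.3) on transcript length from GENCODE M21 was removed as an alternative. Copies were sought with BLAST 2.17.0. The genes named were those with known roles, paralog pairs, extremes of change and of level, and any called. Members and lists were chosen with earlier results of these data known.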

Additional observations from a re-analysis of the deposited data

How the results depend on the processing

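Under DESeq2 the members called were 1 in the *Vangl1/2* and 3 in the *Dermo1-Cre* experiment, and the *Vangl1/2* difference between subunit medians was -0.0218 in edgeR and -0.0219 in DESeq2. With the trend on transcript length removed, with or without a replicate block, the *Vangl1/2* median was -0.14, *Rpl30* turned to 0.16, *Rpl36a* to 0.0197 and *Rps4y2* to 0.0238. Leaving out each library in turn, with that trend kept or removed (the latter chosen after seeing the data), gave 0 to 79 *Vangl1/2* calls (79 only without control replicate 2), medians of -0.79 to -0.0826 and subunit differences of -0.0131 to 0.0238. The *Dermo1-Cre* calls were 0 to 1, with medians of -0.0797 to -0.00336. The interaction calls were 0 to 75 against *Dermo1-Cre* and 0 to 76 against *Sox9-Cre*. Named *Vangl1/2* genes that changed sign ranged from -0.83 to 0.00206 (*Rpl22l1*), -0.69 to 0.0613 (*Rpl24*), -2.50 to 1.47 (*Rpl29*), -0.38 to 0.33 (*Rpl30*), -0.75 to 0.11 (*Rpl36a*), -0.65 to 0.0431 (*Rpl36al*), -0.89 to 0.0796 (*Rps2*), -0.88 to 0.0887 (*Rps27*) and -0.54 to 0.094 (*Rps4y2*). The cause was not tested. Of values that answer a comparison 244 kept their side and size and 26 did not, and of those of named genes 949 kept, 50 became called and 33 turned.

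The main fits did not pair libraries by replicate number, and so few libraries cannot show whether the numbers mark pairs. Each library's deviation from its group mean was taken per gene, and these deviations were correlated across genes between control and mutant libraries. Same-numbered libraries had correlations of 0.303, 0.049 and 0.0126 (*Vangl1/2*), 0.073, -0.0732 and -0.223 (*Dermo1-Cre*) and 0.0535, 0.132 and -0.12 (*Sox9-Cre*). Differently numbered libraries ran from -0.264 to 0.15, from -0.282 to 0.341 and from -0.22 to 0.155, in the same order. With the replicate block 0 members were called in any experiment or contrast.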

Other observations

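Among the pseudogene names left out, *Rps15a-ps6* had 68.2, 143.5 and 240.7 normalized counts in the *Vangl1/2* controls and 41.3, 150.8 and 402.8 in the mutants, and 15.9 to 64.8 in the libraries of the other experiments. *Rps19-ps3* had 18.1 to 29.4 in the *Vangl1/2* libraries and *Rps15a-ps4* 25.2 to 45.3. *Rpl34-ps1* was at 0.932 in 1 library and listed at 0 in the others. The 4 endothelial markers had median log2 fold changes of 0.21 (*Vangl1/2*), -0.06 (*Dermo1-Cre*) and -0.05 (*Sox9-Cre*), and the 4 macrophage markers 0.11, -0.08 and -0.21, with 0 called in limma when all libraries were kept. At an unadjusted p under 0.05, 1 endothelial marker was higher in the *Vangl1/2* and 1 macrophage marker lower in the *Sox9-Cre* experiment.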
